A study of Mus musculus with 12 samples.

Results

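The comparison set Th9 cells grown without interleukin-7 (IL-7) against untreated naive CD4+ T cells, on 5 of the 12 arrays of the series. The Th9 group held 3 arrays of naive CD4+ T cells that had been cultured for 3 days under Th9 conditions and had received no IL-7. The naive group held 2 arrays of CD4+ T cells at 0 h, before any IL-7. All cells came from spleens of mice aged 2 months. The sample labels give the strain of both groups as B6.Cg-Tg(TcraTcrb)425Cbn/J, which carries a transgenic T cell receptor (OT-II, specific for an ovalbumin peptide), whereas the design text names C57BL/6 mice. In the series' other arm naive cells received IL-7 for 48 h before the Th9 culture. Whether the Th9 cells studied here spent those 48 h in culture without IL-7 is not stated, nor are the agents of the Th9 culture. The arrays were chosen by these labels alone, with no measured value. No source says that replicates came from separate animals or cultures. The p-values therefore rest on the scatter among these 5 arrays alone, and that scatter may be technical.

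Naive CD4+ T cells are small, resting cells that recirculate through lymphoid organs and live on signals from IL-7 and self antigen. Stimulation of their receptor for antigen drives them into division, and the cytokines present at that time decide which helper subset they become. Th9 cells arise in vitro when IL-4 and transforming growth factor beta (TGF-beta) act together, and they are known for the cytokine IL-9, which acts on mast cells and on epithelium in allergy, worm infection and tumour immunity. PU.1 (gene Spi1), IRF4, BATF, GATA3, STAT5 and STAT6 are the factors most often tied to the Il9 gene in mouse.

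Each experiment had been run on its own BeadChip, per the labels, so the chip and the cell state cannot be told apart here. Mean deposited signal was 221.6, 139.1 and 158.5 on the Th9 arrays and 245.2 and 197.6 on the naive arrays. A probe was called detected at a detection p under 0.01, the chance that a probe without a target is as bright. Detected probes made up 28.3% to 32.1% of all probes on the Th9 arrays and 33.4% to 34.4% on the naive arrays. Replicates correlated at 0.981 to 0.985 within the Th9 group and at 0.995 within the naive group, and arrays of different groups at 0.748 to 0.766. The T cell genes Cd3e and Cd4 were detected on all 5 arrays. The number of arrays limits the precision of every value.

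Most measured transcripts differed between Th9 and naive cells. Of 11356 features tested (8783 genes with a symbol and 2573 probes without), limma called 8254 (72.7%) at an adjusted p under 0.05. Of these, 3923 rose in Th9 cells (34.5% of the features tested) and 4331 fell (38.1%). Since this background is so broad, size was used to separate genes. A large change was a call with a log2 difference of at least 2, which is 4-fold or more. Large rises numbered 798 (7.03%) and large falls 774 (6.82%), and 43 features rose and 21 fell by at least 5 log2 units. The median over all features was -0.08. Levels below are normalised log2 signals of a gene's brightest probe, and changes are Th9 minus naive. Levels of different genes are not comparable, because each comes from its own probe. Where a probe was detected on no array of a group, the fold is a lower bound, with each undetected value raised to the lowest detected value of its array.

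**Figure D1:**
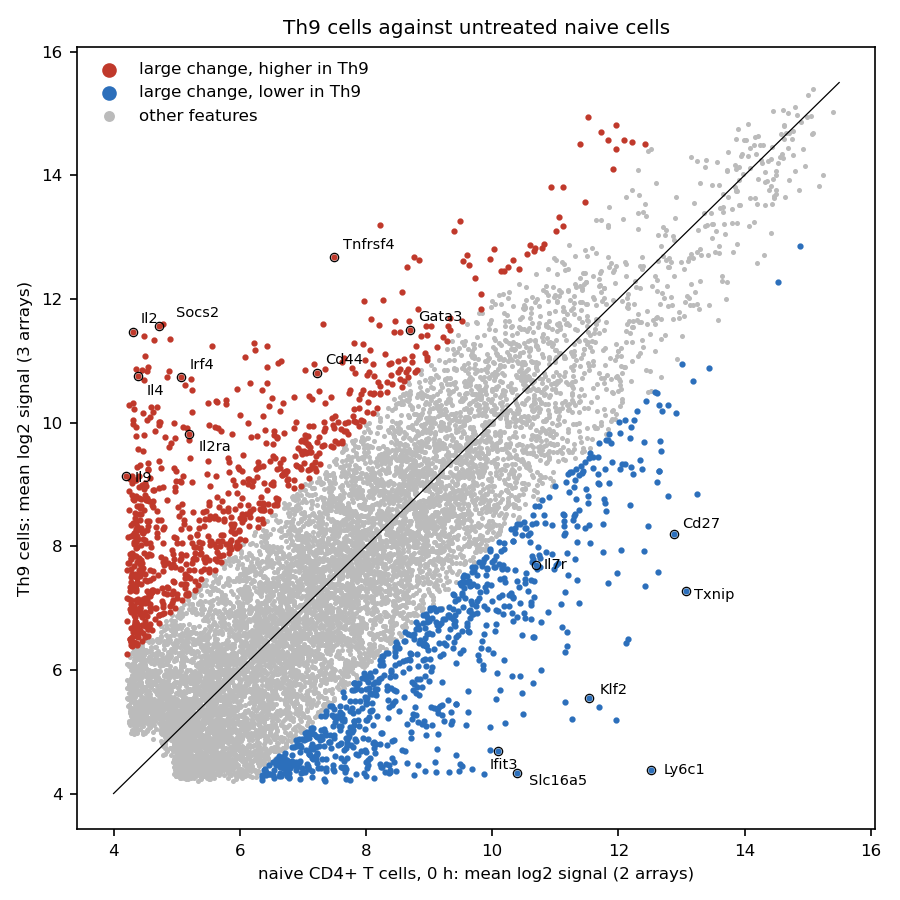
Mean log2 signal of each of the 11356 features in Th9 cells (vertical, 3 arrays) against naive CD4+ T cells (horizontal, 2 arrays). Red points are the 798 large rises, blue points the 774 large falls, and the line marks equal levels. The open circles are named genes, with Il2, Socs2, Il4 and Il9 at the left edge, where naive cells lie at background, and Ly6c1 and Klf2 at the lower right.

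The Il9 transcript, which defines the cell type, was detected on all 3 Th9 arrays and on neither naive array. Its level was 8.62, 9.14 and 9.66 in Th9 cells, against 4.2 and 4.2 in naive cells. The groups lay far apart, although the 3 Th9 arrays spread over more than 1 log2 unit. Il9 was at least 18.4-fold higher in Th9 cells (adjusted p = 4.6e-06). The RefSeq promoter of Il9 (build GRCm38.p6, the 250 bases before its start site, 5′ to 3′ on the gene's strand) is shown because it holds letters of 2 kinds of site that the factors above can use. Capitals mark an AP-1 site (TGANTCA), which BATF and JUN family proteins can bind, and a STAT6-type site (TTC and GAA with any 4 bases between).
Il9 (chr13:56482258-56482507, minus strand): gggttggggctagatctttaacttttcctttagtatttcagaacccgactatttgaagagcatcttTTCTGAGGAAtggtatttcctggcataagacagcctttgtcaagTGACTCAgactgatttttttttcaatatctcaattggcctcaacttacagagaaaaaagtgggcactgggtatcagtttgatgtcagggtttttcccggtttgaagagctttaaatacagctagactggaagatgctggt
Both motifs were searched on both strands, and they can overlap other motifs. The AP-1 letters stood in the promoters of 4 of the 19 tested effector cytokine genes with a RefSeq promoter (21.1%), against 5.06% of the promoters of tested genes and 7.82% of the 27025 genes in the table. The STAT6-type letters stood in 3 of the 19 (15.8%), against 5.61% and 6.76%. Among interferon-stimulated genes, which fell, 5 of 17 promoters held the AP-1 letters (29.4%) and 3 the STAT6-type letters (17.6%), which also stood in 4 of 25 promoters of replication genes (16%). A match describes the sequence and is not evidence that a factor was bound.

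Most other effector cytokine transcripts were higher too. Of 22 tested effector cytokine genes, 19 rose and 2 fell, and 14 of the 19 rises were large (63.6% of the list, against 7.03% of all features). On this list 11 genes were detected on all Th9 arrays and neither naive array. They were tested through the Th9 arrays alone, and 6 listed genes detected on no array were not tested. The list's median change was 3.04, against -0.08 over all features. Il2, the growth factor of dividing T cells, was 11.18, 11.43 and 11.80 in Th9 cells, against 4.30 and 4.30 in naive cells. No naive array detected it, and it was at least 92.5-fold higher in Th9 cells (adjusted p = 3.6e-07). Il4, which drives Th2 cells and takes part in the making of Th9 cells, was 10.31, 10.80 and 11.15 in Th9 cells, against 4.37 and 4.42 in naive cells. It was undetected in naive cells and at least 56.4-fold higher in Th9 cells. The type 2 cytokine Il5, a growth factor of eosinophils, was 10.36, 9.88 and 10.24 in Th9 cells, against 4.57 and 4.37 in naive cells. Il13, which acts on epithelium and mucus, was 8.72, 8.89 and 9.11 in Th9 cells, against 4.59 and 4.70 in naive cells. Neither was detected in naive cells, and the bounds were 37.4-fold for Il5 and 15.7-fold for Il13. Il24, a member of the IL-10 family, was at least 37.8-fold higher, and Il3, a growth factor of blood cell precursors, at least 17.8-fold. The regulatory cytokine Il10 was at least 1.77-fold higher and Il17f, of the Th17 subset, at least 2.08-fold, but Il17f lost its call with 75th percentile scaling (adjusted p = 0.062). The Th1 cytokine Ifng was detected on 1 of the 2 naive arrays and rose by 1.65 ± 0.32 log2 units (adjusted p = 0.0022). The 2 cytokine genes that fell, named after their values were seen, were Ltb, which forms lymphotoxin at the surface of resting lymphocytes (-2.82), and Il16, a chemoattractant that resting T cells store (-3.89). Il21, a cytokine of follicular helper and Th17 cells, was not detected on any of the 5 arrays.

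Among 6 tested chemokine genes, 4 rose (66.7%) and 2 fell (33.3%), against 34.5% and 38.1% of all features. Ccl4, an inflammatory chemokine, was 10.02, 11.16 and 11.71 in Th9 cells, against 6.70 and 6.53 in naive cells. Its Th9 arrays were uneven but all above both naive arrays, and it rose by 4.35 ± 0.43 log2 units. Ccl3, its neighbour and relative, was 6.85, 8.30 and 9.47 in Th9 cells, against 5.85 and 5.99 in naive cells and rose by 2.29 ± 0.64 (adjusted p = 0.013). Its call did not hold under 5 alternative settings, without either naive array among them, where the adjusted p lay between 0.058 and 0.088. Ccl17, a ligand of CCR4 linked to Th9 cells in mouse, was detected in Th9 cells only and was at least 2.90-fold higher. Ccl9, of the CCR1 ligands, was at least 2.58-fold higher. Ccl5, an inflammatory chemokine made by memory and cytotoxic cells, ran the other way at 4.61, 4.90 and 4.63 in Th9 cells, against 9.97 and 9.96 in naive cells. It was at least 27.4-fold lower, and Xcl1, which attracts cross-presenting dendritic cells, at least 2.56-fold lower.

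**Figure D2:**
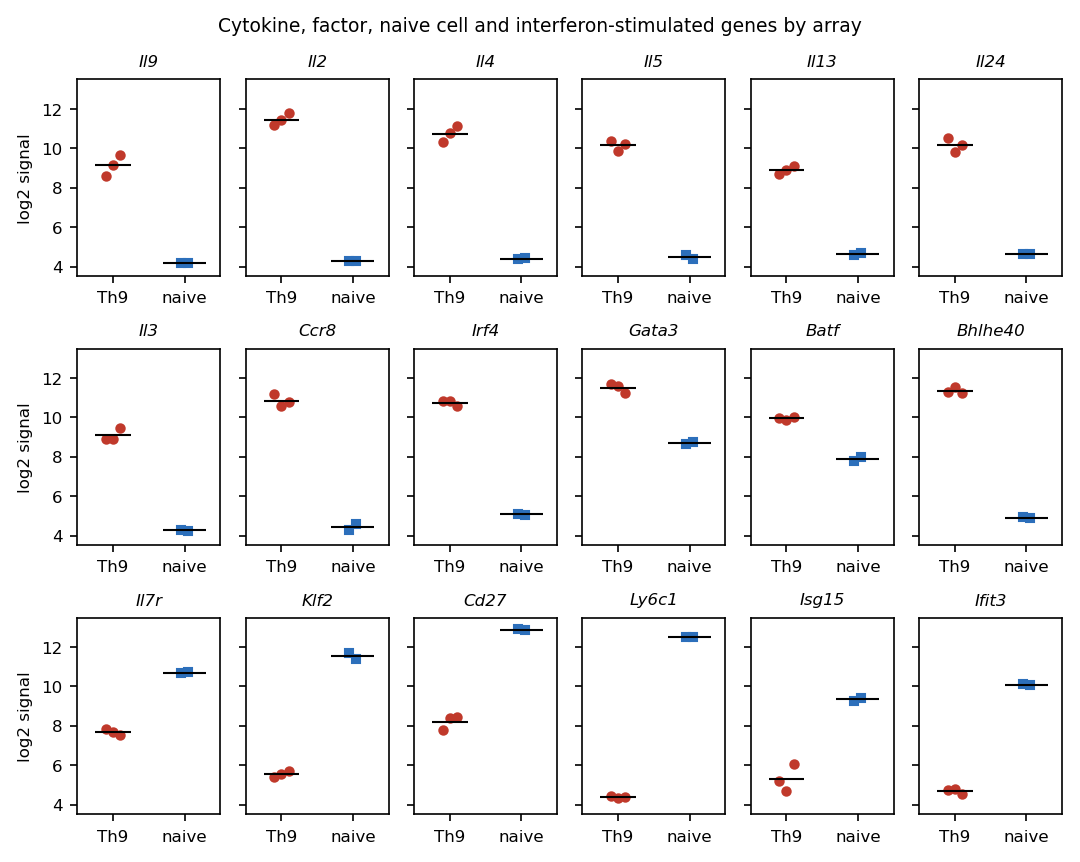
Normalised log2 signal of 18 genes on each array, with the 3 Th9 arrays (red circles) left of the 2 naive arrays (blue squares) and a bar at each group mean. The groups of these picked genes do not overlap, which is no result in itself, since 72.7% of all features were called. The upper rows hold genes that are higher in Th9 cells, and the lowest row genes that are lower, with Ly6c1 at 4.44, 4.34 and 4.37 against 12.50 and 12.52.

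The factors that act on Il9 did not move together. Of 20 tested Th9 lineage factors, 10 rose (50%) and 7 fell (35%), 7 and 2 of them by large changes. The shares of all features were 34.5% and 38.1%. The median was 0.44, and -0.18 when each chip was normalised on its own, so no direction is given for the list. Irf4, a factor induced in proportion to receptor stimulation, was 10.81, 10.82 and 10.59 in Th9 cells, against 5.09 and 5.06 in naive cells. It rose by 5.66 ± 0.14 log2 units (50.7-fold, adjusted p = 3.6e-07). Gata3, the master factor of Th2 cells, was 11.70, 11.59 and 11.22 in Th9 cells, against 8.66 and 8.74 in naive cells, a rise of 2.80 ± 0.18. Batf, the AP-1 family partner of IRF4, was 9.95, 9.89 and 10.02 in Th9 cells, against 7.80 and 7.98 in naive cells and rose by 2.06 ± 0.14. Its arrays were tight in both groups. Bhlhe40, a repressor that favours inflammatory cytokines, rose by 6.46 ± 0.14, Irf8 rose by 3.44 ± 0.18 and Stat5a, which carries the signal of IL-2, rose by 2.29 ± 0.14. On the other side stood Stat6, the transducer of IL-4, which was 6.27, 5.60 and 6.87 in Th9 cells, against 8.09 and 8.03 in naive cells and fell by 1.81 ± 0.33 (adjusted p = 0.0016). Smad3, which carries TGF-beta signals, was 7.16, 7.27 and 7.18 in Th9 cells, against 9.46 and 9.35 in naive cells and fell by 2.20 ± 0.13 on 2 of 2 probes. Irf1, an interferon-induced factor, fell by 3.97 ± 0.15 on 5 of 5 probes, and the resting-cell factors Foxp1 and Foxo1 fell by 1.25 ± 0.18 and 0.86 ± 0.22 (adjusted p = 0.0091, 0.09 without naive replicate 1). The probe for Spi1, which encodes PU.1, was not detected on any of the 5 arrays.

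Receptors tied to Th9 cells were divided. Of 16 tested Th9-associated cytokines and receptors, 11 rose (68.8%) and 3 fell (18.8%), against 34.5% and 38.1% of all features. All Th9 arrays and neither naive array detected 8 genes of this list. These were tested through the Th9 arrays alone, so only a rise was open to them. Ccr8, a receptor for CCL1 and CCL8 found on type 2 and regulatory T cells, was 11.20, 10.56 and 10.77 in Th9 cells, against 4.28 and 4.61 in naive cells. It was undetected in naive cells and at least 60.1-fold higher in Th9 cells. Ccr6, a mucosal homing receptor, was at least 30.3-fold higher on 2 of 2 probes. Tnfrsf4, which encodes the costimulatory receptor OX40, was 12.75, 12.66 and 12.62 in Th9 cells, against 7.43 and 7.57 in naive cells and rose by 5.18 ± 0.13 log2 units. Tnfrsf18, which encodes GITR, rose by 3.86 ± 0.20. Other receptors were lower. Tgfbr2, the ligand-binding chain of the TGF-beta receptor, was 8.74, 8.81 and 8.53 in Th9 cells, against 11.80 and 11.80 in naive cells and fell by 3.10 ± 0.14 (adjusted p = 2e-06). Il4ra was dim in naive cells and detected on no Th9 array, at 4.94, 4.69 and 5.03 in Th9 cells, against 5.57 and 5.55 in naive cells. Its call was lost when all 12 arrays were fitted together (-0.67, adjusted p = 0.11). Itgae, an integrin that TGF-beta induces in other settings, was 5.17, 5.24 and 5.09 in Th9 cells, against 9.10 and 8.73 in naive cells and fell by 3.75 ± 0.16 on 5 of 5 probes. Il17rb, part of the receptor for IL-25, did not pass the test (-0.32, adjusted p = 0.37).

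In the TGF-beta and activin list, 4 of 17 tested genes rose (23.5%) and 10 fell (58.8%), against 34.5% and 38.1% of all features. The risers included ligands. Tgfb1 was 9.52, 9.55 and 9.57 in Th9 cells, against 6.98 and 6.95 in naive cells and rose by 2.58 ± 0.13 log2 units, and Inhba, which encodes the activin A chain, was at least 8.50-fold higher. Tgfbr2, Smad3 and Smad5, a transducer of bone morphogenetic proteins (-2.27), were among the genes that fell.

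Genes of other helper subsets are set beside the 34.5% of all features that rose and the 38.1% that fell. Of 11 tested Th2 genes, 9 rose (81.8%), 7 of them by large changes (63.6%), and the 2 that fell were Stat6 and Il4ra. On this list 6 genes were detected on all Th9 arrays and neither naive array, so only a rise was open to them. In the regulatory T cell list 11 of 15 tested genes rose and 2 fell, and several of the risers are also activation genes. Ctla4, an inhibitory receptor of activated and regulatory T cells, was 11.50, 11.47 and 10.91 in Th9 cells, against 6.29 and 6.15 in naive cells and rose by 5.07 ± 0.21. Ebi3, a chain of IL-27 and IL-35, was at least 20.8-fold higher, and Capg, an actin-capping protein, rose by 3.82 ± 0.15. For Foxp3, the factor that defines regulatory T cells, the probes disagreed. The brightest fell by 0.98 ± 0.14, the other 3 differed by 0.71 to 0.86 in the other direction, and the mean over probes gave 0.35 (adjusted p = 0.076), so no direction is given. Of 9 tested Th1 genes, 3 rose (33.3%) and 6 fell (66.7%). The receptor chains Il12rb1 and Il12rb2, which respond to IL-12, were at least 7.53-fold and 2.94-fold higher. Il18r1 fell by 3.22 ± 0.17, Ifngr1 fell by 2.66 ± 0.21 and Cxcr3, the homing receptor of Th1 cells, was at least 2.02-fold lower. Tbx21, the Th1 master factor, was detected on 1 naive array and no Th9 array and was not tested. In the Th17 list 3 of 6 rose (50%) and 2 fell (33.3%), with Rora, a factor of Th17 and innate lymphoid cells, up by 1.41 ± 0.13. In the follicular helper list 5 of 9 rose (55.6%) and 4 fell (44.4%). The Th1, Th17 and follicular helper lists are short, and the shares of Th1 rises and Th17 falls lay near those of all features. Bcl6, the factor of that subset, fell by 2.54 ± 0.26, and Slamf6, an adhesion receptor of follicular helper and stem-like cells, fell by 3.86 ± 0.20, while Pou2af1, a coactivator of OCT proteins, rose by 1.73 ± 0.14.

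Activation genes rose, with few exceptions. Of 25 tested members, 23 rose (92%, against 34.5% of all features), with a median of 3.58. Large rises numbered 19 (76%, against 7.03%). All Th9 arrays and neither naive array detected 6 genes of the list, so only a rise was open to them. Batf3, an AP-1 factor induced after T cell stimulation, was 10.27, 10.36 and 10.29 in Th9 cells, against 4.30 and 4.31 in naive cells and at least 41.4-fold higher. Il2ra, the high-affinity chain of the IL-2 receptor, was 9.74, 9.90 and 9.79 in Th9 cells, against 5.31 and 5.07 in naive cells and rose by 4.62 ± 0.14 log2 units on 2 of 2 probes. Cd44, an adhesion molecule kept by effector and memory cells, was 10.76, 10.81 and 10.85 in Th9 cells, against 7.16 and 7.29 in naive cells and rose by 3.58 ± 0.13 on 4 of 4 probes. Cd200, a ligand that restrains myeloid cells, rose by 4.58 ± 0.18, and Icos, a costimulatory receptor, rose by 2.33 ± 0.23. Myc, a driver of growth, rose by 1.61 ± 0.18 (3.05-fold). The exception that fell was Cd69, an early activation antigen that holds cells in tissue, at 9.25, 9.62 and 9.73 in Th9 cells, against 11.61 and 11.25 in naive cells. It fell by 1.90 ± 0.19 on 2 of 2 probes (adjusted p = 8.3e-05), and all 3 Th9 arrays were below both naive arrays.

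Genes of the naive and resting state fell. Of 22 tested naive T cell genes, 20 fell (90.9%, against 38.1% of all features) and 1 rose, and 9 falls were large (40.9%, against 6.82%). Both naive arrays and no Th9 array detected 4 genes of the list, so only a fall was open to them. Ly6c1, a surface glycoprotein of subsets of naive and memory cells, was 4.44, 4.34 and 4.37 in Th9 cells, against 12.50 and 12.52 in naive cells. It was bright on both naive arrays and undetected in Th9 cells, at least 159.9-fold lower. Klf2, which keeps T cells quiescent and drives expression of homing receptors, was 5.39, 5.54 and 5.70 in Th9 cells, against 11.69 and 11.37 in naive cells and fell by 5.99 ± 0.17 log2 units (63.6-fold, adjusted p = 3.7e-07). Cd27, a costimulatory receptor of naive and central memory cells, was 7.78, 8.38 and 8.45 in Th9 cells, against 12.91 and 12.85 in naive cells and fell by 4.68 ± 0.22 on 3 of 3 probes. Il7r, the receptor chain for IL-7, was 7.85, 7.69 and 7.54 in Th9 cells, against 10.67 and 10.71 in naive cells and fell by 3.00 ± 0.15 on 5 of 5 probes. Il6ra fell by 3.48 ± 0.19, and Il6st, its signalling partner gp130, was at least 5.70-fold lower. Smaller falls were seen in the homing receptor Ccr7 (-0.95) and the factor Lef1 (-1.25, 2 of 3 probes), and S1pr1, which lets lymphocytes leave tissue, was at least 1.16-fold lower. The member that rose was the survival gene Bcl2, at 9.51, 9.38 and 9.23 in Th9 cells, against 8.24 and 7.87 in naive cells (1.32), but 3 of its 6 probes went the other way and their mean gave 0.19 (adjusted p = 0.36).

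Of 20 tested quiescence genes, 16 fell (80%, against 38.1% of all features) and 4 did not pass the test. Large falls numbered 7 (35%, against 6.82%). The member of the Schlafen family Slfn1 was 5.90, 5.19 and 5.37 in Th9 cells, against 11.13 and 11.18 in naive cells and fell by 5.67 ± 0.22. Tsc22d3, a glucocorticoid-induced protein also called GILZ, was 8.18, 8.11 and 7.47 in Th9 cells, against 12.51 and 12.32 in naive cells and fell by 4.49 ± 0.23. Pik3ip1, an inhibitor of PI3 kinase, fell by 3.98 ± 0.18, the small GTPase regulators Ripor2 and Rasa3 fell by 3.80 ± 0.16 and 3.39 ± 0.20, and Txnip, an inhibitor of thioredoxin and of glucose uptake, was 7.42, 7.40 and 7.01 in Th9 cells, against 13.08 and 13.05 in naive cells and fell by 5.79 ± 0.17. Hsd11b1, the enzyme that activates glucocorticoids, was 5.48, 5.36 and 4.79 in Th9 cells, against 11.31 and 11.21 in naive cells and fell by 6.05 ± 0.22 on 4 of 4 probes. It was detected on 2 of the 3 Th9 arrays.

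The antigen receptor apparatus was lower as well. Of 27 tested genes of the T cell receptor complex and its signalling, 21 fell (77.8%) and 1 rose (3.7%), with a median of -1.19. The shares of all features were 38.1% and 34.5%. Large falls numbered 5 (18.5%, against 6.82% of all features). Cd3e, a chain of the receptor complex, was 9.91, 9.70 and 9.51 in Th9 cells, against 12.68 and 12.64 in naive cells and fell by 2.95 ± 0.16. The adaptors and enzymes Tespa1, Lat, Prkcq and Rasgrp1 fell by 2.61 ± 0.16, 2.26 ± 0.14, 2.13 ± 0.17 and 2.05 ± 0.20, and Themis fell by 1.86 ± 0.16. Cd4 itself was 6.89, 7.08 and 6.97 in Th9 cells, against 7.76 and 7.74 in naive cells and fell by 0.77 ± 0.13. In bulk RNA, fewer cells of a type and less RNA per cell cannot be told apart. Among 23 trafficking receptors and integrins, 15 fell (65.2%) and 5 rose (21.7%), against 38.1% and 34.5% of all features. Cxcr4, the receptor for CXCL12, was 6.83, 6.83 and 6.24 in Th9 cells, against 10.05 and 10.05 in naive cells and fell by 3.41 ± 0.21, and Icam2, a ligand of the integrin LFA-1, fell by 3.32 ± 0.23. Ccr8, Ccr6 and Cd44 were the 3 large rises. Among 7 genes of the GIMAP family of lymphocyte GTPases, 5 fell (71.4%, against 38.1% of all features) and 2 did not pass the test. Gimap6 (-4.11) and Gimap8 (-2.02) led the falls.

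Genes of cell division rose as a block. Of 25 tested mitosis genes, 24 rose (96%, against 34.5% of all features), with a median of 3.89. Large rises numbered 20 (80%, against 7.03%). Detection on all Th9 arrays and neither naive array held for 9 genes of the list, to which only a rise was open. Cdk1, the kinase that starts mitosis, was 10.94, 10.89 and 10.88 in Th9 cells, against 4.46 and 4.63 in naive cells on its brightest probe. That probe was undetected in naive cells and at least 62.6-fold higher in Th9 cells, whereas a dim other probe differed by -0.41. Top2a, the topoisomerase that untangles chromosomes, was 10.84, 10.78 and 10.59 in Th9 cells, against 4.84 and 4.86 in naive cells and at least 55.8-fold higher on 2 of 2 probes. Birc5, or survivin, part of the chromosomal passenger complex, was 10.80, 10.84 and 10.85 in Th9 cells, against 5.02 and 4.74 in naive cells and rose by 5.95 ± 0.14 on 3 of 3 probes. Its partners Aurkb and Cdca8 were at least 39.7-fold higher and higher by 4.93 ± 0.13 log2 units, and Nusap1, a spindle protein, was at least 33.6-fold higher. The member that fell, named after its values were seen, was securin, Pttg1 (-1.25). The promoters of Cdk1 and Top2a are shown because these probes were bright in Th9 cells and undetected in naive cells and the sequences are dense in the CCAAT box (CCAAT) and in the cell cycle homology region (CHR, TTTGAA), which serve genes of G2 and mitosis. Capitals mark these letters on either strand, from RefSeq, GRCm38.p6, 5′ to 3′.
Cdk1 (chr10:69352913-69353162, minus strand): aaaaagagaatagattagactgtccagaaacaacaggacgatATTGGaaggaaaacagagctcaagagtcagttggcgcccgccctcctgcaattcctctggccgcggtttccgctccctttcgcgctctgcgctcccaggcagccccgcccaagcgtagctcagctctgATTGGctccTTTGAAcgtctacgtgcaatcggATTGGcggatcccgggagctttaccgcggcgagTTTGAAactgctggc
Top2a (chr11:99024190-99024439, minus strand): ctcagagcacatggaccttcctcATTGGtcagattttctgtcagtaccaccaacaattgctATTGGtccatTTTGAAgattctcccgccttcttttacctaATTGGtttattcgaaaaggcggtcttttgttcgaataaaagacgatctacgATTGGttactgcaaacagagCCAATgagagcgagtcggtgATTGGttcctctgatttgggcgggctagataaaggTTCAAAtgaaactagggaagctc
Of 21 tested mitosis genes with a RefSeq promoter, 16 held CCAAT (76.2%, against 37.5% of all promoters and 41.1% of those of tested genes) and 9 held the CHR letters (42.9%, against 18.3% and 12.7%). Of the 531 genes with a large rise and a promoter, 47.5% held CCAAT and 16.4% the CHR letters.

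Replication genes rose with them. Of 30 tested, 28 rose (93.3%, against 34.5% of all features), 15 by large changes (50%, against 7.03%). Cdt1, named after its value was seen, fell (-0.50). All Th9 arrays and neither naive array detected 7 genes of the list, so only a rise was open to them. Chaf1a, a histone chaperone, was 9.47, 9.59 and 9.54 in Th9 cells, against 4.54 and 4.41 in naive cells and at least 24.2-fold higher. Mcm10, Gins2 and Cdc6, which load or start the replicative helicase, were at least 20.3-fold, 18-fold and 11.1-fold higher, and Cdc45 rose by 4.32 ± 0.22 log2 units. Pclaf, which binds the sliding clamp PCNA, was 11.06, 11.16 and 11.03 in Th9 cells, against 4.53 and 4.47 in naive cells and at least 70.8-fold higher. The E2F letters GCGGGAA stood in 7 of 25 promoters of the list (28%), against 4.38% of all promoters and 8.41% of the promoters of tested genes. Among 22 cyclins, kinases, inhibitors and E2F factors, 15 rose (68.2%) and 3 fell (13.6%), against 34.5% and 38.1% of all features. Cdkn1a, the inhibitor p21, was 10.27, 9.93 and 9.74 in Th9 cells, against 4.37 and 4.24 in naive cells. It was undetected in naive cells and at least 33.0-fold higher on 3 of 3 probes. The E2F partner Tfdp1 rose by 3.77 ± 0.14, E2f1 rose by 3.31 ± 0.13, and the S phase cyclins Ccne2 and Ccne1 were at least 10.3-fold and 4.45-fold higher.

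Biosynthetic pathways were higher. Of 26 genes of serine, folate and nucleotide synthesis, 23 rose (88.5%, against 34.5% of all features) and 1 fell. Large rises numbered 12 (46.2%, against 7.03%). Tk1, thymidine kinase, was 10.71, 10.79 and 10.58 in Th9 cells, against 4.48 and 4.47 in naive cells and at least 54.0-fold higher on 3 of 3 probes. Tyms, thymidylate synthase, was 11.09, 11.19 and 11.25 in Th9 cells, against 6.11 and 6.37 in naive cells and rose by 4.93 ± 0.15. The ribonucleotide reductase chain Rrm1 rose by 4.18 ± 0.14, Rrm2 was at least 10.3-fold higher, and Psat1, of serine synthesis, rose by 4.27 ± 0.14. Of 17 glycolysis genes, 15 rose (88.2%) and 1 fell, with 8 large rises (47.1%), against the same shares of all features. Tpi1, triose phosphate isomerase, was 13.07, 13.34 and 13.16 in Th9 cells, against 8.28 and 8.18 in naive cells and rose by 4.96 ± 0.14 on 3 of 3 probes. Aldoc was at least 12.5-fold higher, Pgam1, Pfkp and Pgk1 rose by 3.16 ± 0.14, 3.10 ± 0.13 and 2.91 ± 0.14, and the lactate exporter Slc16a3 was at least 4.68-fold higher. Among 23 genes of the tricarboxylic acid cycle and its carriers, 13 rose (56.5%) and 4 fell (17.4%), against 34.5% and 38.1% of all features. The 2 large rises were those of Slc25a1, the citrate carrier (2.64), and Fh1, fumarase (2.35). Idh3a rose by 1.90 ± 0.21 on 1 of 2 probes, and the sign turned to between -0.37 and -0.12 when any Th9 array was left out, which made the other probe the brighter.

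Of 17 tested cholesterol synthesis genes, 16 rose (94.1%, against 34.5% of all features) and 1 did not pass the test. Large rises numbered 12 (70.6%, against 7.03%), and the median was 2.62. Cyp51, lanosterol demethylase, was 10.52, 10.70 and 10.73 in Th9 cells, against 6.37 and 6.49 in naive cells and rose by 4.22 ± 0.14 log2 units (18.6-fold, adjusted p = 6e-07). Fdps, which makes farnesyl pyrophosphate, was 12.71, 12.59 and 12.61 in Th9 cells, against 9.01 and 8.69 in naive cells and rose by 3.79 ± 0.15. Hsd17b7 rose by 3.63 ± 0.15, Idi1 rose by 3.52 ± 0.16, and Sqle, squalene epoxidase, rose by 3.36 ± 0.16. All 14 genes of the list with a RefSeq promoter held CCAAT letters, to which the factor NF-Y binds next to SREBP at sterol genes, against 37.5% of all promoters. The promoter of Cyp51 is shown as the example, with CCAAT in capitals (RefSeq, GRCm38.p6, 5′ to 3′).
Cyp51 (chr5:4104698-4104947, minus strand): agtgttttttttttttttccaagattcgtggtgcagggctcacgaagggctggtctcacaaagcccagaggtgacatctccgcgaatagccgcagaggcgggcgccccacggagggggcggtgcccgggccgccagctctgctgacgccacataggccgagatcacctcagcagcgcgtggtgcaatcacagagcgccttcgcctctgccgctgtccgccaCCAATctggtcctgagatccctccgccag
Among 23 genes of protein folding and stress in the endoplasmic reticulum, 17 rose (73.9%) and 3 fell (13%). The shares of all features were 34.5% and 38.1%. For 4 of these genes, detected on all Th9 arrays and neither naive array, only a rise was open. Asns, asparagine synthetase and a target of the amino acid response, was 10.83, 11.06 and 10.73 in Th9 cells, against 4.33 and 4.38 in naive cells. It was undetected in naive cells and at least 61.3-fold higher on 3 of 3 probes. Atf3 and Chac1, of the same response, were at least 14.9-fold and 12.6-fold higher, and the chaperone Calr rose by 2.78 ± 0.21. Of 11 amino acid transporters, 8 rose (72.7%) and 2 fell (18.2%), against the same shares of all features. All Th9 arrays and neither naive array detected 4 of the transporters, so only a rise was open to these. Slc7a3, a carrier of cationic amino acids, was at least 13-fold higher and Slc1a4 at least 4.55-fold, while Slc38a2, a carrier of neutral amino acids, fell by 2.18 ± 0.27. Ribosome biogenesis genes moved less, with 18 of 31 up (58.1%), 6 down (19.4%) and 4 large rises (12.9%). The shares of all features were 34.5% up, 38.1% down and 7.03% large rises. Nhp2, Noc4l, Dkc1 and Nop56 rose by 2.60 ± 0.17, 2.14 ± 0.13, 2.12 ± 0.20 and 2.04 ± 0.16, and Bop1, a factor of the large subunit, fell by 1.92 ± 0.18.

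Cytokine signalling changed gene by gene. Of 21 tested receptor chains, 6 rose (28.6%) and 11 fell (52.4%), 7 of the falls large (33.3%). Of 21 JAK, STAT and SOCS genes, 9 rose (42.9%) and 10 fell (47.6%). The shares of all features were 34.5% and 38.1%. Socs2, a feedback inhibitor induced by STAT5, was 11.53, 11.51 and 11.67 in Th9 cells, against 4.71 and 4.73 in naive cells. It was undetected in naive cells and at least 99.2-fold higher. Cish, a relative with the same inducer, was 11.98, 12.21 and 12.14 in Th9 cells, against 8.57 and 8.57 in naive cells and rose by 3.54 ± 0.14. Socs3, the feedback inhibitor of gp130 receptors, ran the other way at 8.21, 7.79 and 7.67 in Th9 cells, against 11.18 and 11.19 in naive cells and fell by 3.29 ± 0.18. Jak1, the kinase shared by the IL-2, IL-4, IL-6 and interferon receptors, fell by 2.20 ± 0.15 on 3 of 3 probes. In the BCL2 family and death receptor list 12 of 20 rose (60%) and 4 fell (20%). Bcl2l1, which encodes the survival protein BCL-XL, was 9.63, 9.71 and 9.67 in Th9 cells, against 4.92 and 4.89 in naive cells and rose by 4.76 ± 0.13 on 3 of 3 probes. The near-identical genes Bcl2a1b and Bcl2a1d rose by 3.24 ± 0.16 and 3.52 ± 0.18, and their probes may share targets. Mcl1, a survival protein of resting T cells, was 9.51, 9.40 and 8.83 in Th9 cells, against 12.36 and 12.40 in naive cells and fell by 3.14 ± 0.22, and Bcl2l11, the killer protein BIM, fell by 2.77 ± 0.15.

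Immediate early genes were divided. Of 30 AP-1, NF-kB, NR4A and EGR genes, 15 rose (50%) and 9 fell (30%), against 34.5% and 38.1% of all features. Large changes were 8 rises (26.7%) and 2 falls (6.67%). The median of 0.41 became -0.11 when each chip was normalised on its own. Fos, an AP-1 subunit induced within minutes of a stimulus, was 6.95, 6.88 and 6.67 in Th9 cells, against 10.90 and 10.13 in naive cells and fell by 3.68 ± 0.23. Dusp1, a phosphatase with similar kinetics, was 7.86, 7.94 and 7.60 in Th9 cells, against 11.57 and 11.05 in naive cells and fell by 3.51 ± 0.19. Egr2 rose by 2.63 ± 0.17, and Nr4a3 was at least 4.60-fold higher, both being factors induced by receptor stimulation. Dusp4, a phosphatase of ERK kinases, was 10.94, 10.84 and 10.74 in Th9 cells, against 4.53 and 4.54 in naive cells and at least 59.8-fold higher on 4 of 4 probes.

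Interferon-stimulated genes were the group with the highest share of large falls among the lists drawn. All 25 tested members fell, against 38.1% of all features, with a median of -3.02. Large falls numbered 18 (72%, against 6.82% of all features). Of the members, 11 were detected on both naive arrays and no Th9 array. They were tested through the naive arrays alone, so only a fall was open to them. Ifit3, which restrains viral RNA, was 4.74, 4.80 and 4.54 in Th9 cells, against 10.14 and 10.05 in naive cells. It was at least 29.9-fold lower on 2 of 2 probes (adjusted p = 3.6e-07). Isg15, a ubiquitin-like modifier, was 5.21, 4.68 and 6.05 in Th9 cells, against 9.28 and 9.41 in naive cells and fell by 4.03 ± 0.35 log2 units. Th9 replicate 3 was the highest of its group and still far below both naive arrays. The nucleic acid sensors Oasl2 and Oas2 were at least 17.5-fold and 15.2-fold lower, Rsad2, or viperin, at least 8.67-fold lower, and Gbp2, a GTPase induced by interferon gamma, fell by 3.99 ± 0.23. Ifi213 and Samd9l, outside the list and of the same kind of regulation, fell by 5.64 ± 0.13 and 5.69 ± 0.17. The promoters of Ifit3 and Isg15 are shown because they hold the core of the interferon-stimulated response element (GAAA and GAAA with any 2 bases between), in capitals on either strand. In Isg15 overlapping copies form 1 run.
Ifit3 (chr19:34583279-34583528, plus strand): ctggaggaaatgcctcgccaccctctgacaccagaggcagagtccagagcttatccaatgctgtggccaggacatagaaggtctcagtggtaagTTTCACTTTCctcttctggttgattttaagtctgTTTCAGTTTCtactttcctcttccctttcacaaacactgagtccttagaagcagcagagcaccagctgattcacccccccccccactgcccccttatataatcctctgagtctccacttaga
Isg15 (chr4:156200819-156201068, minus strand): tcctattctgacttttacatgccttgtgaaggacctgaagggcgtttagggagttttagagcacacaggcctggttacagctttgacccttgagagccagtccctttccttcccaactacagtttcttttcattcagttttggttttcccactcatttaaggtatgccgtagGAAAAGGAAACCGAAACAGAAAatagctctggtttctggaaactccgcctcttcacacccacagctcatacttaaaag
Of the 17 tested members with a RefSeq promoter, 9 held these letters (52.9%), against 3.46% of all promoters. The share was 7.5% among the 440 genes with a large fall and a promoter and 1.88% among the 531 with a large rise.

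Of 13 tested genes of MHC class I and its peptide supply, 11 fell (84.6%, against 38.1% of all features) and 2 did not pass the test. Large falls numbered 5 (38.5%, against 6.82%). Nlrc5, the transactivator of MHC class I, was 6.18, 6.10 and 5.96 in Th9 cells, against 9.92 and 9.80 in naive cells and fell by 3.78 ± 0.14. H2-K1, a classical class I heavy chain, was 9.11, 8.87 and 9.15 in Th9 cells, against 12.64 and 12.57 in naive cells and fell by 3.56 ± 0.15 on 3 of 3 probes. H2-Q7 and H2-T23 fell by 2.78 ± 0.16 and 2.00 ± 0.17, and the peptide transporter chain Tap2 fell by 2.47 ± 0.16. Genes of this family are alike in sequence, so their probes may share targets.

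**Figure D3:**
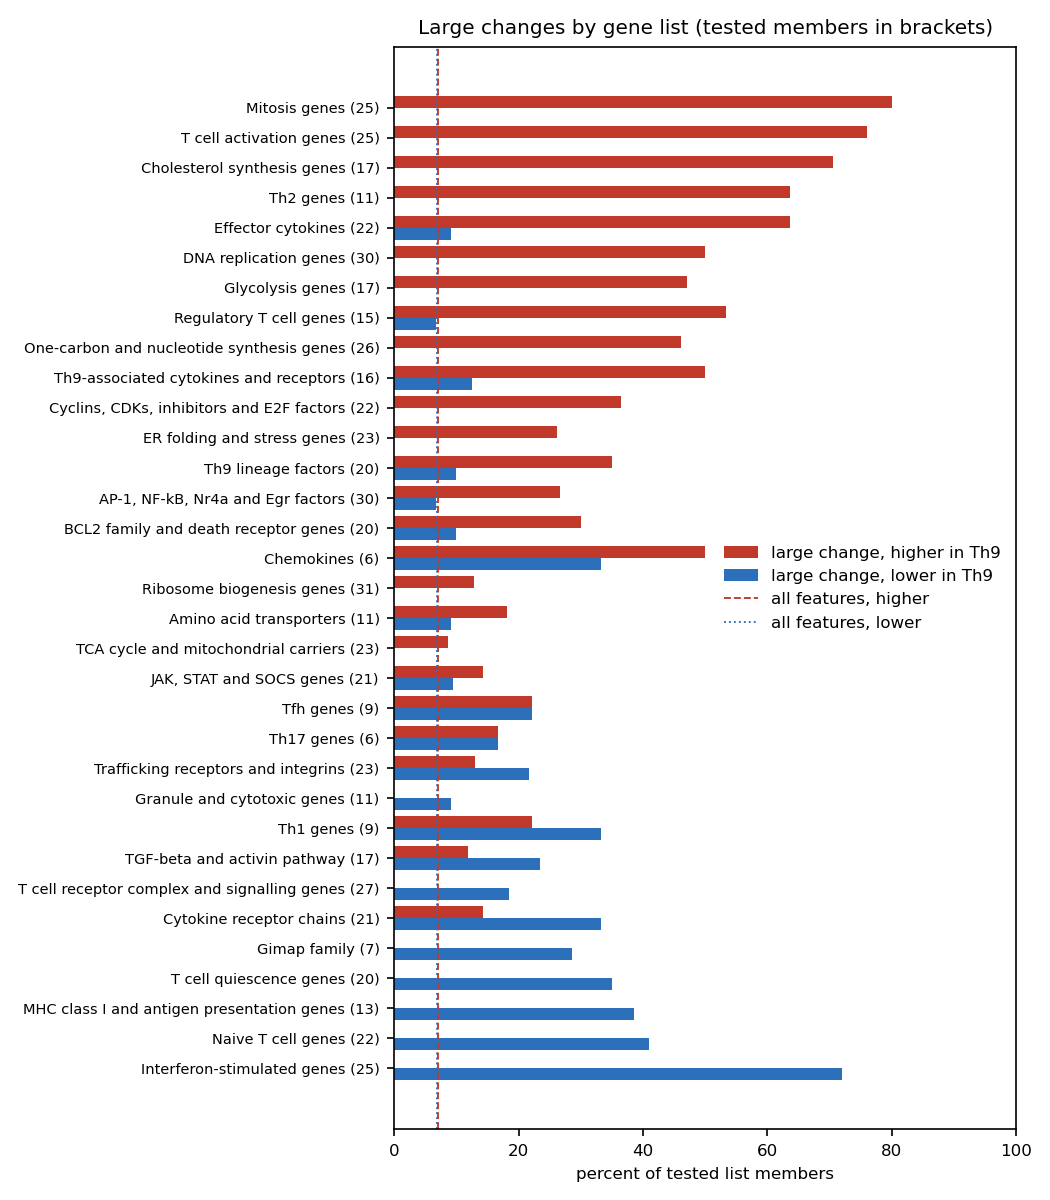
Percent of the tested members of each gene list (number in brackets) with a large change, higher in Th9 cells (red) or lower (blue). The vertical lines mark all features, at 7.03% and 6.82%. Mitosis genes reach 80% higher and 0% lower, and interferon-stimulated genes 0% higher and 72% lower.

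Detection was compared apart from fold size. Of 29453 genes or unnamed probes on the array, 622 (2.11%) were detected on all 3 Th9 arrays and neither naive array, and 1096 (3.72%) on both naive arrays and no Th9 array. The group sizes differ, so the 2 counts are not comparable with each other. Among the transcripts gained were, beside those above, Tg, the gene of thyroglobulin, the precursor of thyroid hormone. It was 11.13, 9.92 and 9.80 in Th9 cells, against 4.21 and 4.28 in naive cells on its 1 probe, at least 40.7-fold higher. Timd2, a TIM family receptor, was at least 39.1-fold higher on 2 of 2 probes. Mt1, a metallothionein that binds zinc, was detected on 1 naive array and was 11.81, 11.58 and 11.37 in Th9 cells, against 4.94 and 4.62 in naive cells, a rise of 6.81 ± 0.18. Among the transcripts lost was Slc16a5, of the monocarboxylate transporter family, at 4.55, 4.18 and 4.28 in Th9 cells, against 10.47 and 10.31 in naive cells and at least 36.7-fold lower on 2 of 2 probes. Dtx1, a regulator of NOTCH signalling, was at least 15-fold lower, and Ifit1bl1, a relative of Ifit3, at least 13.3-fold lower. Pdlim4, an actin-binding protein, fell by 5.06 ± 0.27, as did the pseudogene Bambi-ps1 (-5.20), whose probe may share targets with its parent gene.

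Markers of other cell types also moved. The granulocyte gene S100a8 had deposited signals of 1.6, -0.3 and -4.2 in Th9 cells, against 220.2 and 268.8 in naive cells. Its partner S100a9 had -5.6, -2 and -8.9 in Th9 cells, against 73 and 100.7 in naive cells. Of 13 granulocyte and mast cell markers, 5 were tested and all 5 fell. All 5 were detected on both naive arrays and no Th9 array. They were tested through the naive arrays alone, so only a fall was open to them. Kit (adjusted p = 0.087) and Mpo (0.073) lost the call with 75th percentile scaling, and Ngp and Camp were not detected on any array. Of 12 natural killer cell markers 4 were tested, of which 1 rose and 3 fell. The 3 that fell were likewise detected on both naive arrays and no Th9 array. The riser Klra3, a receptor of the Ly49 family, had 88.8, 109.8 and 122.2 in Th9 cells, against 38.8 and 35.3 in naive cells. Klrd1, which encodes CD94, had 3.9, 0.6 and -4.9 in Th9 cells, against 1036.9 and 734.5 in naive cells, and was at least 19.5-fold lower. The defining markers Ncr1 and Klrb1c were at -10.7 to 10.8 in Th9 cells, against -2 to 18.6 in naive cells, with 1 detection among them. Of 8 tested myeloid markers, 3 rose (37.5%) and 4 fell (50%), against 34.5% and 38.1% of all features. Lyz2, Fcer1g and Tyrobp were detected in naive cells only, at deposited signals up to 161.2, while H2-Ab1 and Cd74 rose by 2.87 ± 0.26 and 1.72 ± 0.24. With all 12 arrays fitted together the calls of H2-Ab1 (adjusted p = 0.051), Cd74 (0.20), Lyz2 (0.24) and Tyrobp (0.11) were lost. Cd14, Itgam and Itgax were not detected. Of 3 tested B cell markers 2 rose, Cd79b by 1.00 ± 0.17 and Fcer2a at least 2.16-fold, and Ms4a1, Pax5 and Cd22 were not detected. Cd79b lost its call with each chip normalised on its own (0.37, adjusted p = 0.068) and with all 12 arrays fitted together (adjusted p = 0.099). Cd8b1, a chain of CD8, had 467.7, 353.1 and 362.9 in Th9 cells, against 2804.3 and 1779.8 in naive cells, while Cd8a was undetected on all 5 arrays. The haemoglobin gene Hba-a1 was at least 9.10-fold lower, and Trgv4, a segment of the gamma-delta receptor, at least 20.1-fold lower. The part of these cells in the falls of Ccl5, Klrd1, Ly6c1 and the granule genes was not tested. Of 11 granule and cytotoxic genes, 5 rose and 5 fell (45.5% each, against 34.5% and 38.1% of all features). Prf1, Nkg7 and Ctsw were down by 1.91 ± 0.24, 1.76 ± 0.20 and 2.15 ± 0.20, and Cst7 and Fasl up by 1.46 ± 0.19 and 1.77 ± 0.23. The Y-linked gene Eif2s3y was detected on all 5 arrays, at 9.26, 9.15 and 9.20 in Th9 cells, against 9.81 and 9.81 in naive cells. Kdm5d, also Y-linked, had deposited signals of 28.1, 12.3 and 12.1 in Th9 cells, against 347.4 and 210.7 in naive cells and fell by 2.64 ± 0.16 log2 units.

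A second Th9 against naive contrast was made on arrays that share none with the ones above. Th9 cells grown after 48 h of IL-7 (3 arrays) were set against naive cells given IL-7 for 24 h (2 arrays), from the same pair of chips, so the chip is again tied to the cell state. Replicate 1 of the Th9 arrays after IL-7 stood apart in Eif2s3y, which was 4.25 there and 9.02 and 8.82 on the other two, against 9.56 and 9.82 in naive cells at 24 h (12 arrays normalised together). Of 11093 features tested, 7809 were called (70.4%), with 777 large rises (7%) and 735 large falls (6.63%). Of the 1559 features with a large change without IL-7 that were tested in both, 1526 were called in the same direction, 1139 were large in the same direction (73.1%) and 1 was called in the opposite direction. The 1139 were 75.7% of the 1504 features with a large change on the IL-7 arrays. Without replicate 1 of the Th9 arrays after IL-7, 1518 of 1555 were called in the same direction and 1132 were large (72.8%). Changes without and with IL-7 lay side by side for Irf4 (5.66 and 6.09), Gata3 (2.80 and 2.83), Tgfbr2 (-3.10 and -2.99) and Il7r (-3.0 and -3.30). Cyp51 stood at 4.22 and 3.31, and limma's test of the difference, described next, called it (adjusted p = 0.025).

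**Figure D4:**
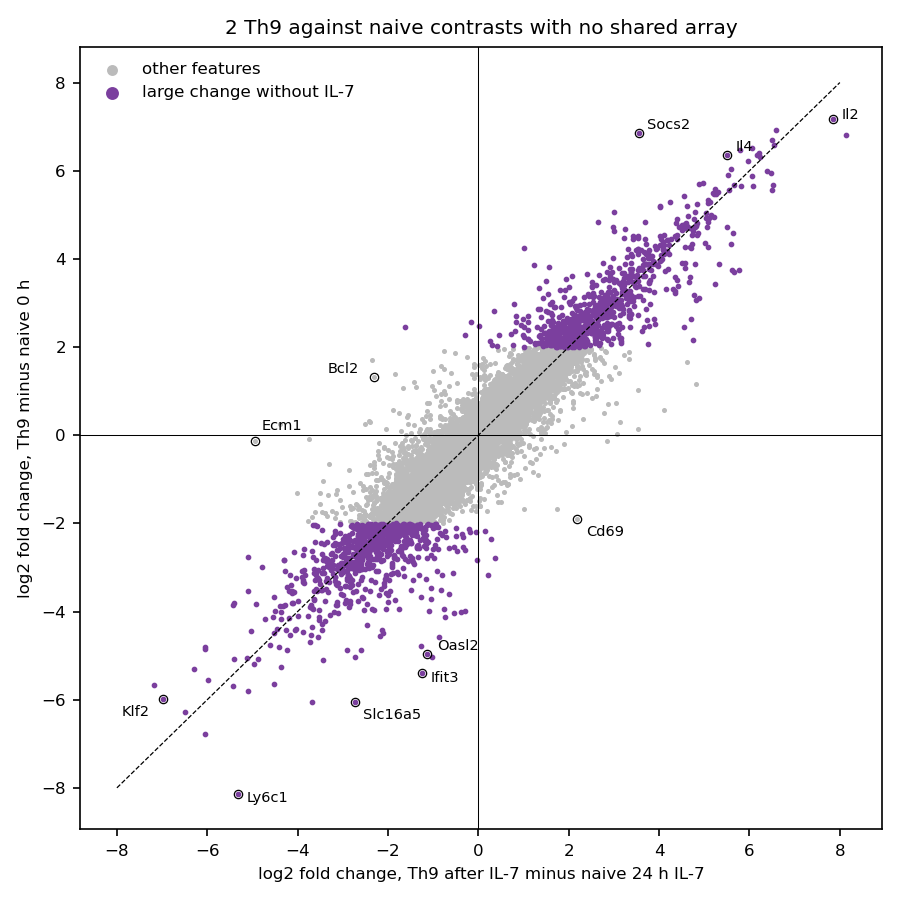
Log2 difference of each feature in Th9 minus naive 0 h cells (vertical) against Th9 after IL-7 minus naive 24 h IL-7 cells (horizontal), with no array in common. Purple points are large changes without IL-7, open circles named genes, and the dashed line marks equal differences. Cd69 lies below 0 on the vertical axis and above 0 on the horizontal. Bcl2 lies the opposite way on its brightest probe, but 3 of its 6 probes were below 0 without IL-7.

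Where the 2 contrasts differed was tested over their 10 arrays normalised together, and limma called 690 of 11977 features (5.76%). Among the lists, 15 of 25 interferon-stimulated genes were called (60%), all with a lower Th9 minus naive difference without IL-7. Ifit3 was 4.74, 4.79 and 4.54 in Th9 cells and 4.66, 4.57 and 4.81 in Th9 cells after IL-7, against 10.07 and 9.98 in naive cells at 0 h and 5.98 and 5.97 at 24 h. The Th9 groups overlapped, and the naive groups did not. In the AP-1, NF-kB, NR4A and EGR list 12 of 30 were called (40%), again all with a lower difference without IL-7. In the cholesterol list 5 of 18 were called (27.8%), all with a higher difference without IL-7. Other lists had larger shares. Regulatory T cell genes had 8 of 15 called (53.3%), 7 with a higher difference without IL-7 and 1 with a lower. Follicular helper genes had 4 of 10 (40%) and activation genes 9 of 26 (34.6%), each in both directions. Of 25 mitosis genes 1 was called. Without replicate 1 of the Th9 arrays after IL-7, 691 of 11896 features were called (5.81%), with 15 interferon-stimulated genes, 13 of the AP-1 list, 6 cholesterol genes and 1 mitosis gene. For Il9 the difference of -0.44 ± 0.55 did not pass the test (adjusted p = 0.73), with levels of 8.55, 9.07 and 9.58 in Th9 cells and 10.03, 8.79 and 10.15 in Th9 cells after IL-7, against 4.21 and 4.2 in naive cells at 0 h and 4.27 and 4.44 at 24 h. Socs2 was 11.45, 11.42 and 11.58 and 11.41, 11.18 and 11.48 in the 2 Th9 groups, against 4.71 and 4.72 at 0 h and 7.99 and 7.59 at 24 h.

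**Figure D5:**
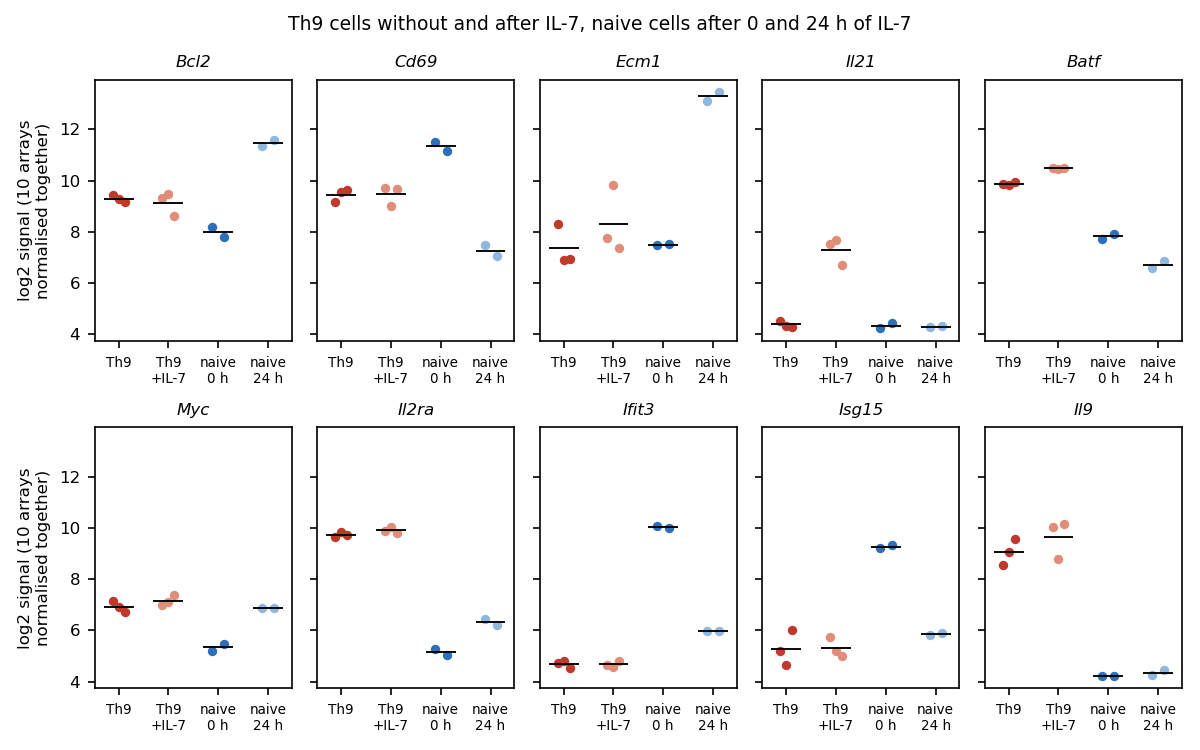
Log2 signal of 10 genes on each array of both contrasts, normalised together, with bars at group means. From left to right stand Th9 cells without IL-7, Th9 cells after IL-7, naive cells at 0 h and naive cells after 24 h of IL-7. Ifit3 and Isg15 differ between the naive groups, and Il21 lies at 6.73 to 7.68 in Th9 cells after IL-7, above the other 3 groups.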

How the data were processed

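Total RNA was labelled with biotin and hybridised to Illumina mouse BeadChips. The authors deposited 1 intensity and 1 detection p-value per probe and array, which GenomeStudio made per the submitters' processing notes, with no version given. The deposited intensity is background-subtracted, linear and not normalised between arrays. A deposited scaled table of intensity was not used, because its probe names did not match (Spearman correlations from -0.0083 to 0.0019 with the unscaled values of the same names).

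The 5 arrays were corrected, quantile-normalised and put on the log2 scale from the deposited intensity with limma's neqc (limma 3.58.1, R 4.3.3, offset 16, negative controls inferred from detection p-values). Probes detected on at least 2 of the 5 arrays were kept, with the brightest probe per symbol. Of the probes, 34885 carried 1 symbol, 18 several and 10378 none. Models were fitted with lmFit and eBayes (3 residual degrees of freedom), and 2-sided p-values were adjusted over all features (Benjamini-Hochberg). Errors of changes are standard errors. The fit was checked on simulated data.

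The members and the 40 gene lists were chosen with earlier results of these data known, and 84 of the 776 listed genes are on more than 1 list. Named genes were the 15 highest and 15 lowest changes, the 10 highest detection bounds each way, the 6 strongest called members per list and a key gene list. Exceptions to a list's direction were named after their values were seen. Ripor2, Msmo1, Izumo1r and Bhlhe40 entered lists through synonyms. Promoters are RefSeq's (7240 of 8783 tested genes matched), and a gene counted when any annotated start held the letters. Replicate numbers did not pair the samples (correlations of deviations -0.0277 and -0.008). Alternatives covered normalisation, offset, filters, probes, tests, the replicate block and leaving out each array. Some listed genes are not reported here.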

Additional observations from a re-analysis of the deposited data

Results flagged for a closer look

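For 7 genes of the key gene list, the Th9 minus naive difference was not the same without IL-7 as on the arrays with IL-7. The test was limma's, of the difference itself over 10 arrays, and was added after the data were seen. It also called named genes outside that list, some with differences as large. Trib3 is an example, at 2.42 without IL-7 and -1.63 with it (difference 4.06, adjusted p = 0.00016). The naive arrays with IL-7 had also been in culture for 24 h, so IL-7 and time cannot be told apart. Changes are log2 values, without IL-7 and then with it, followed by the difference. The activation antigen Cd69 stood at -1.89 and 2.20, a difference of -4.09 ± 0.35 (adjusted p = 0.00017). The survival gene Bcl2 stood at 1.31 and -2.33 on its brightest probe, a difference of 3.64 ± 0.33 (adjusted p = 0.00023). Without IL-7, 3 of its 6 probes went the other way. The mean over probes on the 5 arrays gave 0.19 (adjusted p = 0.36), so its sign without IL-7 rests on the probe. Ecm1, a secreted matrix protein, stood at -0.12 and -4.98, a difference of 4.86 ± 0.90 (adjusted p = 0.011). Its naive level was 7.50 and 7.52 at 0 h and 13.11 and 13.47 at 24 h.

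Smaller differences were those of Batf at -1.70, Cd44 at -1.14, Il2ra at 0.99 and Myc at 1.31. Batf and Cd44 had the same sign in both contrasts (2.06 and 3.76, 3.57 and 4.71). So did Il2ra (4.58 and 3.59). Myc stood at 1.58 ± 0.17 and 0.27 ± 0.17, so no rise with IL-7 is read from it. Without replicate 1 of the Th9 arrays after IL-7, the array without Eif2s3y, a setting also chosen after the data were seen, all 7 were still called, at 4.56 for Ecm1, -3.94 for Cd69 and 3.69 for Bcl2. Only genes that passed the detection filter in both contrasts were taken.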

How the results depend on the processing

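Of the counts of called, large, gained and lost features, 108 of 124 values under alternatives stayed within 1.5 times, and the others follow. Normalising each chip on its own gave 504 large rises and 1394 large falls, moved the median of all features by -0.50 and made 30.8% of calls rises (47.5% in the reported fit). An offset of 50 gave 496 and 456. A size of at least 1 gave 2369 and 2533, of at least 3 313 and 233, and a test against 1 gave 1414 and 1439. Leaving out either naive array gave 2595 and 2604 falls (4331 in the reported fit), where genes detected only in naive cells no longer reach 2 arrays. Without 1 Th9 array, falls ran from 4278 to 4369 (4331 in the reported fit). Lost transcripts counted per probe were 1927. On the IL-7 arrays, calls without an array ran from 5092 (5122 without the other naive array) to 7751, and 75th percentile scaling gave 1130 large falls.

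Replicate numbers are shared but did not pair the samples. With the replicate block 8274 features were called, with 796 large rises and 755 large falls, and on the IL-7 arrays 7676.

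Of 2396 values for the 162 named genes with a large change, 2390 kept direction and call and 0 turned. Over all 220, 19 lost the call, 2 gained it and 8 turned. Ecm1 became 0.11 with the block and ran from -0.59 to 0.12 (0.10 without Th9 replicate 3) over the fits that leave out 1 array. Foxp3 became 0.35 as the mean over probes. Idh3a became -0.42 with 75th percentile scaling and ran from -0.37 to 2.03 without 1 array (-0.37 to -0.12 without a Th9 array). List medians turned as follows, and the cause was not tested. Th9 lineage factors became -0.18 and AP-1, NF-kB, NR4A and EGR factors -0.11 with each chip on its own. Granule genes became -0.17 there, -0.18 with detection on all arrays of a group, -0.14 over probes, and ran from -0.56 to 0.78 without 1 array, below 0 without any Th9 array. Likewise Th1 genes ran from -1.40 to 0.31 and myeloid markers from -0.98 to 1.55, above 0 without either naive array.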
